A study of Mus musculus with 10 samples.

Results

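Proteins that are secreted or placed in membranes are folded in the endoplasmic reticulum (ER), and 48 mouse genes of this machinery and of its stress response were followed in colon crypts, the epithelial glands of the large intestine. The genes were listed by symbol for their known roles, and all 48 were found among the 33632 Ensembl gene IDs of the deposited count table. All 48 passed the filter on low counts, which left 14963 genes for testing. RNA sequencing covered 5 libraries labelled flox and 5 labelled CKO. The flox mice were Sox21fl/fl, with both copies of the transcription factor gene Sox21 flanked by loxP sites. The CKO mice were Lgr5-EGFP-IRES-CreERT2/+;Sox21fl/fl, so the same alleles were combined with a tamoxifen-inducible Cre recombinase made from the Lgr5 stem cell locus, and the knock-in at Lgr5 was carried by the CKO mice alone. Diet and liver were normal in both groups. The sources used here give no age, no tamoxifen schedule and no statement on whether flox mice were also given the drug, and do not say whether each library came from its own animal.

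The ER lumen holds chaperones and enzymes that bind new chains, add disulfide bonds and trim sugars. Chains that fail to fold are sent back to the cytosol for degradation, and lumen proteins that escape are fetched back by KDEL receptors. When unfolded chains build up, the sensors ATF6, IRE1 (gene Ern1) and PERK (gene Eif2ak3) start the unfolded protein response. The response raises chaperone genes, slows translation through PERK, and through ATF4 can lead to the factor CHOP (gene Ddit3). In the colon the goblet cells carry a heavy folding load because they make the large, disulfide-linked mucin encoded by Muc2. The comparisons below ask how the 48 genes differed between the libraries labelled CKO and flox, and how they followed Muc2 across the libraries.

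The targeted transcript did not separate the groups. Sox21 stood at 1.98, 6.53, 4.06, 2.72 and 4.93 CPM (counts scaled to the normalized library size) in flox 1 to 5 and at 7.79, 6.73, 3.39, 3.51 and 5.27 CPM in CKO 1 to 5. The 2 ranges overlapped, and the log2 fold change of CKO over flox was 0.38 ± 0.34 (SE; edgeR adjusted p = 0.577). The part of Sox21 that is removed is not given in the sources used here, so flox and CKO mean the libraries labelled so.

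Total counts ran from 18926634 to 23642415 per library. Reads on genes of chromosome M made up 26.5% of flox 1 and 29.3% of flox 4, while the remaining 8 libraries had 4.30% to 11.8%. These 2 flox libraries also had the lowest scaling factors (0.585 and 0.605, against 0.965 or more elsewhere), so group results are also given for the 8 libraries that remain when they are set aside. Epithelial markers were high in both groups. The list of 8 summed to between 15991 and 24862 CPM across flox libraries, and to between 11582 and 20252 CPM across CKO libraries. Their median log2 fold change was -0.11, with 5 below 0, among them Krt18 (-1.14), and none passed edgeR's test. Epcam was among the 3 above 0, with means of 871 ± 231 CPM (flox) and 1028 ± 77.0 CPM (CKO; SD, n = 5 each). Each of 6 pancreatic acinar markers, from another gland rich in ER, stayed at or below 1.03 CPM. Of 8 tested markers of plasma and B cells, which also have much ER, 7 had fold changes below 0 and none passed the test. Their summed level, with 3 further markers under the filter, was 290 to 327 CPM in flox and 276 to 364 CPM in CKO. Most of that was Sdc1, at 294 ± 19.6 CPM in flox. The immunoglobulin genes Igha, Igkc and Ighm reached at most 10.3 CPM, and Mzb1, Tnfrsf17, Pou2af1 and Cd79a were at 0 in some libraries.

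The promoters of the members carried the sequence through which the stress response is known to act more often than promoters at large. The ER stress response element (ERSE) binds ATF6 together with the factor NF-Y. It was searched as CCAAT and CCACG separated by 9 bases, on both strands of the RefSeq windows that run from 250 bases before to 50 bases after each gene start (assembly GRCm38.p6). A window was matched for 40 of the 48 members, and 8 of these 40 (20%) held the element, against 37 of all 27025 genes with a window (0.137%). The members include genes long known as targets of the response. The 8 were the chaperone genes Hspa5, Hsp90b1, Calr, Canx, Dnajc3 and Creld2, the disulfide isomerase gene Pdia6 and the ubiquitin ligase gene Syvn1, and Hsp90b1 held 2 copies. Their first bases in the direction of the gene lay at positions -212 to -44 from the start. The sites are shown 5′ to 3′ in the direction of the motif, with the 19 motif bases in capitals and 10 flanking bases on each side, because the fixed ends and the spacing can be read across genes while the 9 middle bases differ.
Hspa5, chr2:34772015-34772053: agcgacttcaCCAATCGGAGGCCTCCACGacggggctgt
Hsp90b1, first site, chr10:86705628-86705666: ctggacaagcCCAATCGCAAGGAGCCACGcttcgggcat
Hsp90b1, further site, chr10:86705523-86705561: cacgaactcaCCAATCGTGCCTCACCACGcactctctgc
Calr, chr8:84847065-84847103: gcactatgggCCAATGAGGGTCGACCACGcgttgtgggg
Canx, chr11:50325790-50325828: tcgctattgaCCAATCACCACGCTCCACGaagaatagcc
Dnajc3, chr14:118937817-118937855: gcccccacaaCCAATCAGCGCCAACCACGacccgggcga
Creld2, chr15:88819510-88819548: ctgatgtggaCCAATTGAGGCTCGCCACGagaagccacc
Pdia6, chr12:17266481-17266519: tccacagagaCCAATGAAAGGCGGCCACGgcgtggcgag
Syvn1, chr19:6046522-6046560: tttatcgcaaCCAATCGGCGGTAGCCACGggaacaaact

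The window of Hspa5 is shown up to the gene start, since this chaperone is the usual readout of the response. It covers the 250 bases of chr2:34771840-34772089 on the plus strand, with the exact match to the ERSE letters in capitals. Imperfect copies of the element were not searched for in any gene and would stand in lower case.
Hspa5, bases before the start: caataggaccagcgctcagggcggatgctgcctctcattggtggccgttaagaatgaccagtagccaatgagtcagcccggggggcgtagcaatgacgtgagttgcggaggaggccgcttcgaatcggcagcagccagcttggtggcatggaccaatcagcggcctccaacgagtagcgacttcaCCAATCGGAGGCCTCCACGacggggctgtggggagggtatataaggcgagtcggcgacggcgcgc

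Other stress elements were rarer among the members. ERSE-II, a shorter relative of ERSE searched as ATTGG and CCACG separated by 1 base, was in the windows of Herpud1 and Dnajb11, 2 of 40, against 0.0444% of genes. The UPRE letters TGACGTGG, bound by XBP1 and ATF6, were in the window of Kdelr3 alone among the members and in 0.714% of genes. The letters CGTGG at the end of UPRE are the reverse complement of the CCACG that ends ERSE, and Kdelr3 held no ERSE. The element TTGCATCA, bound by ATF4 with C/EBP factors, was in the windows of Chac1 and Herpud1 and in 1.03% of genes. Kdelr3 and Herpud1 are shown because Kdelr3 had the smallest p against Muc2 in the results below and Herpud1 held both an ERSE-II and an ATF4 element.
Kdelr3, UPRE, chr15:79516368-79516395: ggccgcgcggTGACGTGGcggggcggcc
Herpud1, ERSE-II, chr8:94386367-94386397: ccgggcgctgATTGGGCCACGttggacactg
Herpud1, ATF4 element, chr8:94386307-94386334: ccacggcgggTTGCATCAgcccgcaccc

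Levels of the members spanned a wide range in the crypts, and edgeR called no difference between the groups in any of them. Per length (FPKM, the authors' length-scaled values), mean levels over the 10 libraries ran from 0.402 for Trib3 to 531 for Sec61b, with Calr at 467, Ssr4 at 341 and P4hb at 332. In the comparison of CKO with flox, 0 of 48 members passed edgeR's quasi-likelihood test at an adjusted p under 0.05 (0% of all 14963 genes passed). At an unadjusted p under 0.05 there were 6 members (13% of all genes), each with a fold change below 0: Creld2, Edem2, Kdelr1, Kdelr3, Dnajb11 and Ppp1r15a. limma voom called none, and DESeq2 called 2 members lower in CKO, Edem2 and Kdelr1 (1.14% of all genes were called by DESeq2 in either direction). These 2 were also the members whose CPM ranges did not overlap between the groups with CKO lower (1.26% of all genes), and no member had separate ranges with CKO higher (0.922% of all genes).

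The median log2 fold change over the 48 members was -0.07, with 32 below 0 and 16 above, beside a median of 0.001 over all genes. It was -0.16 without flox 1 and flox 4, with 37 below 0, beside 0.02 for all genes. A fit that took the chromosome M share as a covariate gave -0.17, again with 37 below 0. With library totals without chromosome M as the scale the members' median was 0.17 and that of all genes 0.24, so the sign of the median turned with the scale, and the members' median minus that of all genes was -0.08. On log2(FPKM + 1) it was 0.36, beside 0.30 for all genes, a difference of 0.06. The plot of all fold changes shows the members grouped by role.

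**Figure D1:**
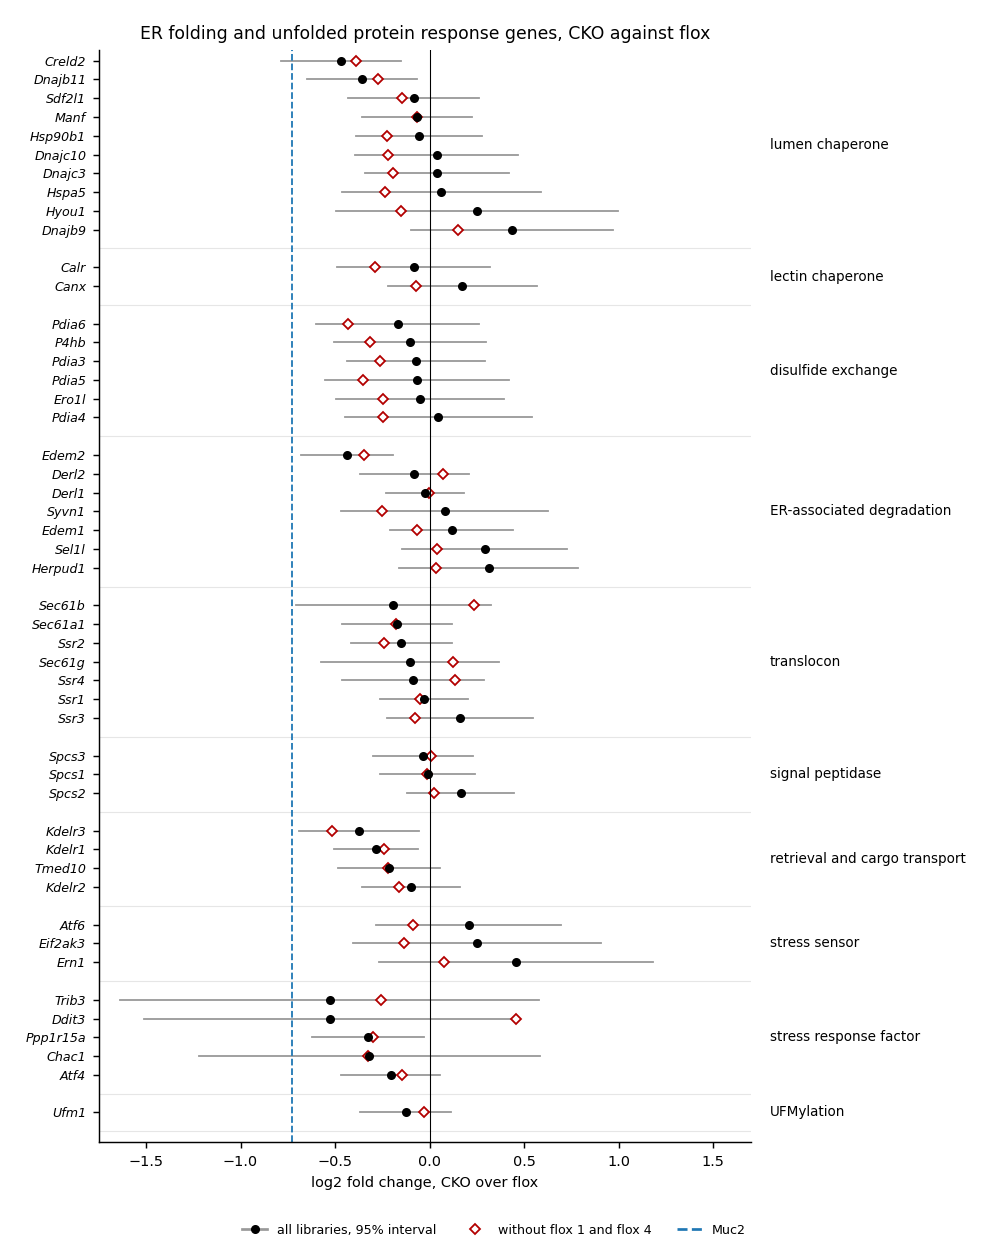
Log2 fold change of CKO over flox (horizontal axis) for the 48 members, grouped by role. Black points are edgeR estimates from all 10 libraries with their 95% intervals, and open diamonds are estimates without flox 1 and flox 4. The dashed line marks the estimate for Muc2, -0.73, which lies outside the interval of 44 members. The interval of Muc2 itself, -1.33 to -0.12, is not drawn.

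Chaperones of the ER lumen had a median log2 fold change of -0.01, with estimates from -0.47 to 0.44. The median was -0.21 without flox 1 and flox 4. Hspa5 (ENSMUSG00000026864), the Hsp70 chaperone BiP, stood at 225, 450, 501, 287 and 517 CPM in flox 1 to 5 and at 358, 468, 361, 355 and 524 CPM in CKO 1 to 5. The lowest values were those of flox 1 and flox 4, and the groups overlapped. The ratio of CKO to flox was 1.04 (95% interval 0.725 to 1.50; edgeR adjusted p = 0.910). Without flox 1 and flox 4 the log2 fold change was -0.24, as the other 3 flox libraries averaged 489 ± 34.9 CPM (SD, n = 3).

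Hsp90b1, the ER member of the Hsp90 family, gave 247, 382, 366, 276 and 351 CPM in flox and 306, 308, 303, 280 and 362 CPM in CKO. The same 2 flox libraries were lowest, and the ratio was 0.962 (0.763 to 1.21; edgeR adjusted p = 0.865). Manf, a small stress-induced protein that is also secreted, averaged 179 ± 20.7 CPM in flox libraries and 171 ± 24.9 CPM in CKO (SD, n = 5 each), with a ratio of 0.955 (0.779 to 1.17).

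Creld2, a stress-induced protein of the lumen, had the largest fold change below 0 in this role. Its CPM were 79.7, 65.1, 84.3, 85.5 and 71.1 in flox and 44.0, 60.4, 46.5, 58.8 and 68.9 in CKO. CKO 1 to 4 lay below every flox library and CKO 5 lay within the flox range. The log2 fold change was -0.47 ± 0.14 (SE), a ratio of 0.722 (0.580 to 0.899). The adjusted p was 0.354 in edgeR and 0.119 in DESeq2. Without flox 1 and flox 4 it was -0.39. Creld2 is one of the 8 genes with an ERSE.

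The remaining lumen chaperones are Hyou1, which exchanges nucleotide on BiP, the BiP partners Dnajb9, Dnajb11, Dnajc3 and Dnajc10, and Sdf2l1. Dnajb11, named after its values were seen, averaged 187 ± 23.2 CPM in flox and 146 ± 18.8 CPM in CKO (SD, n = 5 each), and 3 CKO libraries lay below the lowest flox library. Its log2 fold change was -0.36 ± 0.13 (SE; edgeR adjusted p = 0.372). Dnajb9 had the highest estimate of the role, 0.44 ± 0.25 (SE; edgeR adjusted p = 0.429), which fell to 0.15 without flox 1 and flox 4. Over the 10 lumen chaperones 5 estimates were below 0, and 9 were without those libraries.

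The 2 lectin chaperones, which hold sugar-bearing chains, overlapped between the groups. Calr (calreticulin) stood at 653, 984, 962, 631 and 970 CPM in flox and at 725, 952, 713, 729 and 844 CPM in CKO. All 5 CKO libraries lay above flox 1 and flox 4 and below flox 2, 3 and 5, and the ratio was 0.943 (0.713 to 1.25; edgeR adjusted p = 0.828). Canx (calnexin) gave a ratio of 1.13 (0.857 to 1.48; edgeR adjusted p = 0.635). Its log2 fold change turned from 0.17 to -0.07 without flox 1 and flox 4, and that of Calr went from -0.08 to -0.29.

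The enzymes of disulfide exchange showed the same arrangement of libraries. P4hb, the founding protein disulfide isomerase, was at 596, 967, 929, 657 and 992 CPM in flox and 782, 891, 688, 713 and 777 CPM in CKO. Again every CKO library lay between the 2 flox libraries rich in mitochondrial counts and the other 3. Pdia6 stood at 146, 262, 271, 156 and 255 CPM in flox and at 174, 212, 175, 179 and 230 CPM in CKO, in the same order.

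The ratio was 0.930 (0.704 to 1.23) for P4hb, 0.889 (0.659 to 1.20) for Pdia6 and 0.951 (0.739 to 1.23) for Pdia3, the isomerase that works with calnexin and calreticulin. Over the 6 genes, which include Pdia4, Pdia5 and the oxidase gene Ero1l, the median log2 fold change was -0.07, and -0.29 without flox 1 and flox 4, where all 6 estimates were below 0. Of these 6, Pdia5 (-0.35) and Pdia6 (-0.43) had an unadjusted p under 0.05 in that fit (6.41% of all genes), with adjusted p of 0.772 and 0.702 in edgeR.

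Genes of ER-associated degradation, which removes misfolded chains, held the member with the smallest p. Edem2 (ENSMUSG00000038312), which helps to trim mannose from chains bound for degradation, stood at 101, 85.1, 102, 112 and 92.5 CPM in flox and at 71.6, 80.6, 64.3, 77.8 and 69.7 CPM in CKO. On these scaled CPM every CKO library was below every flox library, and the ranges were not compared with totals without chromosome M as the scale. Its log2 fold change was -0.44 ± 0.11 (SE), a ratio of 0.740 (0.625 to 0.876). The adjusted p was 0.303 in edgeR and 0.0216 in DESeq2. Without flox 1 and flox 4 it was -0.35, the ranges remained apart, and the DESeq2 adjusted p was 0.352.

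Herpud1, a membrane protein of the degradation complex, was at 54.1, 106, 102, 59.2 and 102 CPM in flox and 87.7, 118, 105, 84.0 and 132 CPM in CKO. Its estimate of 0.31 ± 0.22 (SE; edgeR adjusted p = 0.490) went to 0.03 without flox 1 and flox 4, the 2 lowest libraries. The ubiquitin ligase gene Syvn1 (0.08), its partner Sel1l (0.29), Edem1 (0.12) and the channel genes Derl1 (-0.02) and Derl2 (-0.08) had log2 fold changes with intervals that included 0. Of these, Syvn1 (-0.25), Edem1 (-0.07) and Derl2 (0.07) turned in sign without flox 1 and flox 4.

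The translocon brings chains into the ER, and its genes split by how they stood in flox 1 and flox 4. Sec61b, a small subunit of the pore, was at 227, 111, 128, 186 and 98.1 CPM in flox and 123, 106, 114, 174 and 139 CPM in CKO. Here flox 1 and flox 4 were the highest of the 10 libraries, and the log2 fold change of -0.19 became 0.23 without them. Ssr4, of the translocon-associated TRAP complex, had its highest value, 252 CPM, in flox 1. The remaining flox libraries had 126 to 164 CPM and the CKO libraries 148 to 182 CPM.

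Sec61a1, the pore-forming subunit, averaged 361 ± 32.9 CPM in flox libraries and 320 ± 38.7 CPM in CKO (SD, n = 5 each), a ratio of 0.887 (0.726 to 1.08; edgeR adjusted p = 0.524). Across the 7 translocon genes (with Sec61g, Ssr1, Ssr2 and Ssr3) 6 estimates were below 0, and 4 without flox 1 and flox 4. The 3 signal peptidase subunits, which cut the signal peptide from entering chains, gave ratios of 0.993 (0.834 to 1.18) for Spcs1, 1.12 (0.920 to 1.36) for Spcs2 and 0.976 (0.812 to 1.17) for Spcs3. Spcs3 has near copies in the mouse genome with which it may share reads.

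The genes that return escaped lumen proteins and carry cargo had a median log2 fold change of -0.25, and all 4 estimates were below 0. Kdelr1 (ENSMUSG00000002778), a KDEL receptor, stood at 223, 189, 211, 205 and 206 CPM in flox and at 170, 172, 161, 178 and 167 CPM in CKO. The groups did not overlap on these scaled CPM. The log2 fold change was -0.28 ± 0.10 (SE), a ratio of 0.821 (0.704 to 0.957). The adjusted p was 0.365 in edgeR and 0.0247 in DESeq2. On the 8 libraries the estimate was -0.24, and the DESeq2 call was lost (adjusted p = 0.467).

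Kdelr3 (ENSMUSG00000010830), a further KDEL receptor named after its values were seen, was at 29.5, 38.3, 32.8, 23.3 and 35.5 CPM in flox and 24.5, 25.1, 20.6, 28.7 and 24.3 CPM in CKO. The CKO libraries overlapped flox 4 and lay below the other flox libraries. Kdelr3 had a log2 fold change of -0.37 ± 0.15 (SE; edgeR adjusted p = 0.372), and of -0.52 in the 8 libraries (edgeR adjusted p = 0.494). Tmed10, a cargo receptor of transport vesicles, gave 295, 264, 319, 283 and 305 CPM in flox and 261, 251, 225, 298 and 230 CPM in CKO, with 4 CKO libraries below the lowest flox library and a ratio of 0.863 (0.716 to 1.04). Kdelr2 had a ratio of 0.933 (0.779 to 1.12). With totals without chromosome M as the scale, Kdelr2 (0.13) and Tmed10 (0.02) turned above 0, Kdelr1 was at -0.03 and Kdelr3 at -0.17.

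The stress sensors did not separate the groups. Ern1, the gene of IRE1, was at 10.8, 39.7, 21.7, 15.4 and 35.7 CPM in flox and 40.3, 38.5, 32.5, 19.9 and 38.9 CPM in CKO. The lowest values were those of flox 1 and flox 4, and the estimate of 0.46 ± 0.33 (SE; edgeR adjusted p = 0.503) was 0.08 without them. Eif2ak3, the gene of PERK, stood at 11.3, 39.7, 24.6, 13.1 and 28.3 CPM in flox and at 29.3, 33.6, 26.2, 21.7 and 29.3 CPM in CKO.

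The estimate for Eif2ak3 was 0.25 with all libraries and -0.13 without flox 1 and flox 4, and that for Atf6 was 0.21 and -0.09. The sign of both therefore turned with those 2 libraries.

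Of the stress response factors, the 5 estimates were all below 0 and none passed the test. Atf4 turned above 0 (0.05) with totals without chromosome M as the scale, and Ddit3 turned without flox 1 and flox 4. Atf4, the factor made when PERK slows translation, was at 159, 127, 155, 150 and 144 CPM in flox and 124, 142, 106, 143 and 123 CPM in CKO. The groups overlapped, and the ratio was 0.867 (0.723 to 1.04; edgeR adjusted p = 0.440). Ppp1r15a, which restarts translation as part of a phosphatase, gave 11.2, 13.7, 9.45, 11.8 and 10.3 CPM in flox and 8.23, 9.38, 9.34, 8.28 and 9.76 CPM in CKO, overlapping at flox 3 and CKO 5. Its log2 fold change was -0.33 ± 0.14 (SE; edgeR adjusted p = 0.376).

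Ddit3, the gene of the factor CHOP, was the member most unequal between libraries of 1 group. It stood at 34.1, 6.78, 13.1, 31.7 and 8.78 CPM in flox and at 11.9, 10.2, 10.2, 23.3 and 9.62 CPM in CKO. The high libraries were flox 1 and flox 4, and in the CKO group CKO 4, which has the largest chromosome M share of that group (11.8%). The log2 fold change was -0.52 ± 0.45 (SE; edgeR adjusted p = 0.567). It turned to 0.46 in the 8 libraries and to 0.57 with the chromosome M covariate (edgeR adjusted p = 0.266), so no direction can be given.

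Trib3 and Chac1, targets of ATF4 and CHOP, were near the limit of these libraries, with 6 to 33 and 25 to 107 reads per library. Their estimates of -0.53 ± 0.51 and -0.32 ± 0.41 (SE) had intervals that included 0. Ufm1, a small protein modifier attached to ER-bound ribosomes, averaged 62.8 ± 5.74 CPM in flox libraries and 57.5 ± 6.02 CPM in CKO (SD, n = 5 each), a ratio of 0.916 (0.774 to 1.08; edgeR adjusted p = 0.572).

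**Figure D2:**
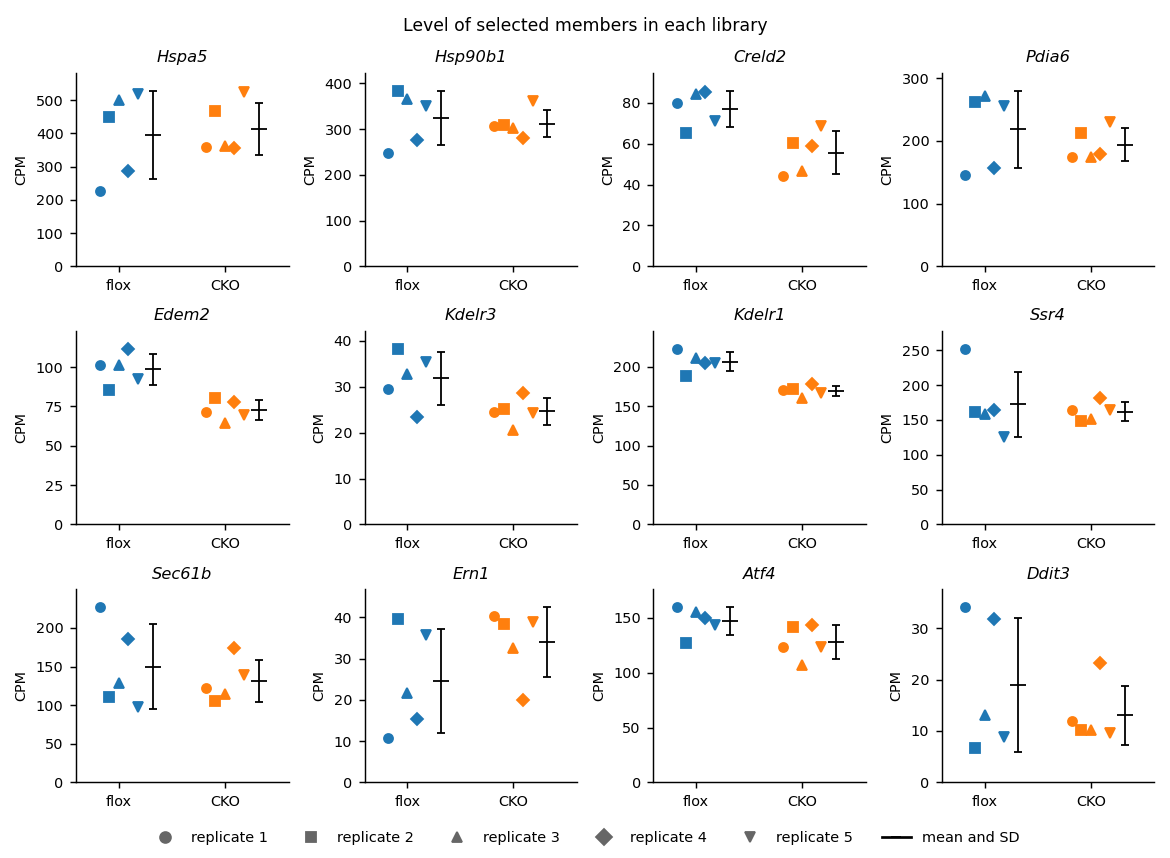
CPM of 12 members in each library (vertical axes start at 0), with 1 marker shape per replicate number and the group mean with its SD as the black bar. Edem2 and Kdelr1 have groups that do not overlap, and flox 1 and flox 4 are lowest for Hspa5, Pdia6 and Ern1 and highest for Ddit3 and Sec61b.

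The flox libraries differed among themselves in these genes. Reads of all 48 members made up 0.365% of flox 1 and 0.369% of flox 4, and 0.648% to 0.955% of each of the remaining 8 libraries. With chromosome M left out of the total these shares were 0.497% and 0.522% against 0.735% to 1.004%. The summed FPKM of the members was 2784 and 2685 in these 2 libraries and 4561 to 6192 in the others.

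The members did not shift alike in them. On the scaled log2 CPM, flox 1 and flox 4 averaged below flox 2, 3 and 5 for 32 of 48 members, with a median difference of -0.34, beside -0.06 over all genes and 54.3% of all genes below 0. The largest differences below 0 were those of Hyou1 (-1.41), Eif2ak3 (-1.28), Ern1 (-1.25), Syvn1 (-1.07), Hspa5 (-0.94) and Atf6 (-0.92). The largest above 0 were those of Ddit3 (1.78), Sec61b (0.87), Sec61g (0.47) and Ssr4 (0.46).

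All 6 disulfide exchange genes, both lectin chaperones and all 3 sensors were lower in these 2 libraries, and all 5 stress response factors were higher. Longer members lay lower. Pearson's r of the difference with log2 exon length was -0.43 across the 48 members, whose lengths run from 1108 to 10431 bases, and -0.39 across the 14130 tested genes with a length. These are correlations across genes, which share the same libraries and are not independent replicates. What part RNA quality has in this was not tested.

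**Figure D3:**
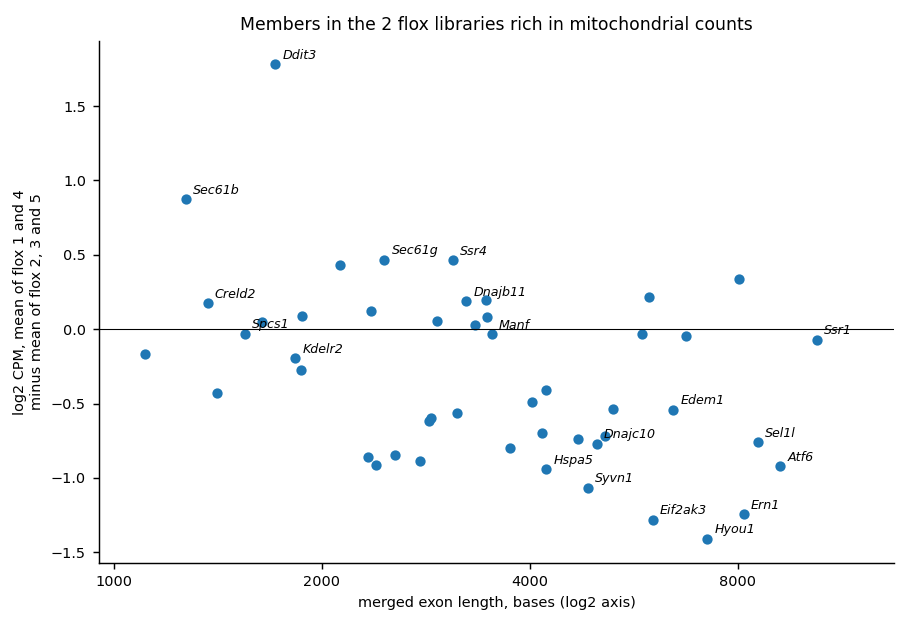
Difference in log2 CPM between the mean of flox 1 and flox 4 and the mean of flox 2, 3 and 5 (vertical axis) against merged exon length in bases (horizontal log2 axis), 1 point per member. Ddit3 and Sec61b stand highest, at 1.78 and 0.87, and the long genes Hyou1, Eif2ak3 and Ern1 lowest.

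The 8 members with an ERSE did not stand apart in the comparison of the groups. Their median log2 fold change was -0.01 (range -0.47 to 0.17), beside -0.08 for the other 32 members with a window. Without flox 1 and flox 4 the medians were -0.24 (range -0.43 to -0.07) and -0.14. Creld2 was the lowest of the 8 and Canx the highest with all libraries.

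Of 165 further ER genes listed for their function, 164 were matched and 162 tested. None passed edgeR's test or limma voom's, 29 had an unadjusted p under 0.05 (13% of all genes did), and their median log2 fold change was -0.05, with 96 below 0. It was -0.08 on the 8 libraries, with 110 below 0, and 0.17 with totals without chromosome M. DESeq2 called 4 of them (1.14% of all genes): Ddit4, a stress-induced inhibitor of mTOR signalling, was higher, and Asns (asparagine synthetase, a target of ATF4), Wars (the tryptophan tRNA synthetase) and Sil1 (a nucleotide exchange factor of BiP) were lower. Of these, Ddit4 and Wars were named after their values were seen, and on the 8 libraries their DESeq2 adjusted p were 0.126 and 0.291.

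Asns stood at 50.2, 48.5, 41.0, 51.4 and 48.4 CPM in flox and at 29.1, 37.5, 25.6, 30.9 and 33.1 CPM in CKO, and Sil1 at 87.9, 76.4, 73.9, 79.6 and 80.8 CPM in flox and at 52.6, 59.8, 54.7, 62.5 and 60.8 CPM in CKO. On the scaled CPM the groups did not overlap for either gene (1.26% of all genes had separate ranges with CKO lower). Asns had a log2 fold change of -0.62 ± 0.12 and Sil1 of -0.46 ± 0.10 (SE). The adjusted p were 0.174 and 0.209 in edgeR, 0.00123 and 9.07e-04 in DESeq2, and 0.0991 and 0.103 in DESeq2 on the 8 libraries.

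By sublist, 20 of 28 genes of the integrated stress response, the branch run by ATF4, had estimates below 0, with a median of -0.21, and 10 had an unadjusted p under 0.05 (13% of all genes). The median was -0.14 without flox 1 and flox 4, with 22 below 0 and 6 at an unadjusted p under 0.05 (6.41% of all genes), and with totals without chromosome M it was 0.05. The 11 oligosaccharyltransferase genes, which attach sugar chains, had a median of -0.20, with Rpn2 at -0.30 ± 0.13 (SE; edgeR adjusted p = 0.381). Their median was -0.11 without flox 1 and flox 4, with 6 below 0, and 0.08 with totals without chromosome M. Of the 33 genes of ER to Golgi transport 17 had estimates below 0, with a median of -0.04. On the 8 libraries there were 25 below 0, with a median of -0.09, and with the chromosome M covariate 26, while totals without chromosome M gave a median of 0.18. Tmed3 was the lowest of them in p, at -0.72, and -0.33 without flox 1 and flox 4.

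Xbp1, the factor that IRE1 activates by splicing, averaged 186 ± 59.8 CPM in flox libraries and 195 ± 21.7 CPM in CKO (SD, n = 5 each; edgeR adjusted p = 0.881). Its estimate of 0.07 was -0.22 without flox 1 and flox 4, and gene counts do not show its splicing. Ern2, the IRE1 relative of mucous cells, was at 50.3 ± 18.5 and 48.4 ± 12.6 CPM (edgeR adjusted p = 0.924). Agr2, the disulfide isomerase relative that goblet cells need for Muc2, stood at 1242, 1616, 1567, 1116 and 1431 CPM in flox and at 1138, 1059, 962, 1348 and 1196 CPM in CKO. These overlapped, with a ratio of 0.818 (0.630 to 1.06; edgeR adjusted p = 0.446).

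Smallest in p of their sublists, without passing the test, were also Creb3l3 (0.80), a membrane-bound factor, Derl3 (-0.999), a derlin, Prkcsh (-0.46), a subunit of glucosidase II, Wrb (0.61), which inserts tail-anchored proteins, and Cdk5rap3 (-0.66), of the UFMylation ligase. Derl3 had 11 to 47 reads per library. It is also in the list of plasma and B cell markers.

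On the scaled CPM, Muc2, the cargo that was set against the members, was lower in every CKO library than in any flox library. It stood at 11358, 19294, 14100, 11924 and 14509 CPM in flox and at 9531, 9079, 7586, 11098 and 5664 CPM in CKO. In log2 units the difference was -0.73 ± 0.28 (SE). Its adjusted p was 0.372 in edgeR and 0.0440 in DESeq2. The difference was -0.55 with totals without chromosome M as the scale (edgeR adjusted p = 0.432), and -0.89 without flox 1 and flox 4. In the authors' FPKM the groups overlapped for Muc2, at 487 to 1707 in flox and 530 to 798 in CKO. The lowest FPKM was that of flox 1. Of 20 goblet cell markers, Muc2 and ER genes among them, 19 had estimates below 0 (median -0.68). Their summed level, Muc2 included, was 30437 to 46878 CPM in flox and 15938 to 28621 CPM in CKO. A list of 13 of them leaves out Muc2, the ER genes, Atoh1 and Ang4. All 13 had estimates below 0 (median -0.77), but the sums overlapped, at 16048 to 28098 CPM in flox and 6812 to 16897 CPM in CKO. In these bulk samples fewer goblet cells and less RNA per goblet cell cannot be told apart.

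The members' estimates lay closer to 0 than that of Muc2. The 95% interval of the fold change lay wholly above the estimate of -0.73 for 44 of 48 members and held it for 4, and no member had a lower estimate. The estimate of Muc2 had a wide interval of its own, -1.33 to -0.12. The same count was not made over all genes, whose median fold change was 0.001, so it shows nothing particular to the members. The difference between a member and Muc2 was not itself tested. Set per Muc2 read, 11 members had every CKO library above every flox library (24.6% of all genes did), among them Canx, Herpud1, Spcs1 and Spcs2, so that share was near the background. CKO 5 had the least Muc2 of all libraries, 5664 CPM, while the members took 0.995% of its counts outside chromosome M, above every library but flox 2.

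When counts were fitted on Muc2 across the 10 libraries, 0 of 48 members had a slope that passed the test (6 genes did, 0.0401% of all), and limma voom called none. DESeq2 called 1 member, Kdelr3 (1.28% of all genes). The members' median slope was 0.08 log2 units per doubling of Muc2, with 33 above 0, beside a median of 0.01 over all genes. An unadjusted p under 0.05 was found for 2 members (7.41% of all genes, a larger share). With totals without chromosome M as the scale the median was 0.25 with 41 above 0, beside 0.07 for all genes. The chromosome M covariate gave 0.16 with 35 above 0, beside 0.005 for all genes. In that fit 10 members had an unadjusted p under 0.05 (13.5% of all genes). The slope of Kdelr3 was 0.46 (95% interval 0.18 to 0.74), with an edgeR adjusted p of 0.331 and a DESeq2 adjusted p of 0.0433. Without flox 1 and flox 4 it was 0.48, with adjusted p of 0.115 in edgeR and 0.0121 in DESeq2. The slope of Edem2 was 0.34 (edgeR adjusted p = 0.666).

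Hspa5 did not follow Muc2, with a slope of -0.01 (-0.52 to 0.51; edgeR adjusted p = 0.998). Trib3 (0.74) and Chac1 (0.64) had the steepest estimates, with intervals that included 0. Dnajb9 had the lowest, at -0.35 (-0.91 to 0.21). Since Muc2 separates the groups on the scaled CPM, these slopes hold both the difference between the groups and the spread within them. Muc2 and the members also share the scaling of each library. In log2 CPM, Muc2 itself averaged lower in flox 1 and flox 4 than in flox 2, 3 and 5 (difference -0.44).

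With the group in the model, the slope on Muc2 passed the test for 0 of 48 members in edgeR (0% of all genes) and in DESeq2, and 1 had an unadjusted p under 0.05 (8.06% of all genes). It was Dnajc10, a reductase of the lumen named after its values were seen, with a slope of 0.62 ± 0.27 (SE; edgeR adjusted p = 0.599). The slope of Kdelr3 was 0.43 ± 0.21 (SE; edgeR adjusted p = 0.635) and that of Edem2 -0.04 ± 0.19 (SE; edgeR adjusted p = 0.942). The members' median of 0.15 became -0.03 without flox 1 and flox 4.

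At equal Muc2, the difference between CKO and flox passed the test for 0 of 48 members in edgeR (0% of all genes) and in DESeq2, and 2 had an unadjusted p under 0.05, a smaller share than the 13.4% of all genes. These were Creld2, at -0.72 ± 0.21, and Edem2, at -0.47 ± 0.18 (SE; edgeR adjusted p = 0.368 for both). Without CKO 4 alone, 1356 genes passed in this fit, among them 1 of 48 members, a smaller share than that of all genes. It was Creld2 (-0.93, edgeR adjusted p = 0.0438). With totals without chromosome M as the scale, 3804 of 14962 genes passed, 3482 of them higher. Among these were 12 of 48 members, all higher, so that share was near the background. Kdelr1 was at -0.31 ± 0.16 and Kdelr3 at -0.05 ± 0.20 (SE) at equal Muc2.

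**Figure D4:**
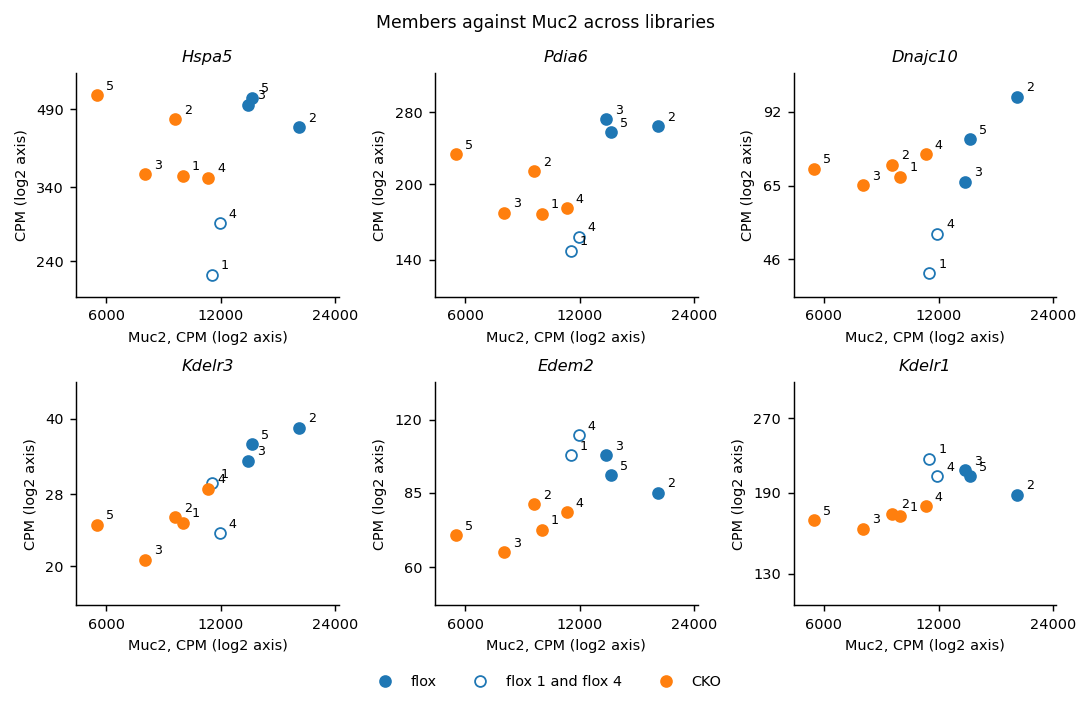
CPM of 6 members (vertical log2 axes) against CPM of Muc2 (horizontal log2 axis) in the 10 libraries, numbered by replicate, with flox 1 and flox 4 as open circles. Kdelr3 is highest in flox 2, which has the most Muc2, Hspa5 has no such order with CKO 5 highest, and Edem2 and Kdelr1 separate the groups.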

How the data were processed

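RNA from colon crypts was sequenced after TruSeq library preparation with mRNA enrichment, per the labels' protocols. The submitters' processing notes name fastp and HISAT2. The build, the annotation and how reads were counted were not given in the sources used here. In the deposit, the count table holds whole-number counts per Ensembl gene ID, not normalized by the authors, and the deposited FPKM values are fragments scaled by the authors to gene length and depth. Symbols and merged exon lengths came from GENCODE M21 (26102 of 33632 IDs matched), and promoter windows from RefSeq GRCm38.p6, so coordinates are those of that assembly.

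CPM values were computed from the deposited counts with trimmed-mean (TMM) scaling. Counts were tested with edgeR 4.0.16 in R 4.3.3 (filterByExpr, robust glmQLFit, glmQLFTest) on group, on log2 CPM of Muc2, or on both, and adjusted by Benjamini-Hochberg over all tested genes (threshold 0.05; Muc2 left out of the fits that use it). Intervals are at 95%. Alternatives were other scalings and filters, DESeq2 1.42.0, limma 3.58.1 (voom, and log2(FPKM + 1) or log2(FPKM + 0.1)), a replicate block, covariates, and libraries left out. DESeq2 without flox 1 and flox 4 was added after seeing the data. The scripts were tested on simulated data. FPKM was used to compare levels between genes.

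The members and all gene lists were chosen with earlier results of these data known. Genes named by rule are, in each role, the 2 with the highest mean FPKM and the 1 with the smallest p. Hspa5, Hsp90b1, Atf4, Ddit3 and Ern1 were added to them. Of the other ER genes the rule names Xbp1, Ern2, Agr2 and the 1 with the smallest p in each sublist. Some of the named genes are given per library and others as group means, ratios or log2 fold changes. No 2 libraries were as alike as sampling noise allows (lowest chi-square per degree of freedom 27.1). The p-values measure the spread between these libraries, which may be technical. Reads shared with overlapping, antisense or near-identical genes were not measured.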

Additional observations from a re-analysis of the deposited data

Results flagged for a closer look

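Among 52 groups of 5 values examined (the named members, Muc2 and Sox21 in each group), 2 had an end value whose gap to its neighbour was more than 0.71 of the group's range. Chance flags about 1 in 20 such groups. Ddit3, the gene of CHOP, was at 23.3 CPM in CKO 4, against 9.62 to 11.9 CPM in the other CKO libraries. Manf was at 214 CPM in CKO 5, against 152 to 167 CPM in the other CKO libraries.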

How the results depend on the processing

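For CKO against flox, members called were 0 under every alternative run except DESeq2 (2), and other ER genes called were 0 except with DESeq2 (4), voom with quality weights (1, Ddit4) and DESeq2 on the 8 libraries that remain when flox 1 and flox 4 are set aside (1, Creb3l4, lower). Calls over all genes were 170 with DESeq2, 71 with DESeq2 on the 8 libraries, 44 with voom and quality weights, 3 with no filter, 1 with totals without chromosome M, 1 with the mitochondrial covariate, and 0 to 2 with each library left out. The members' median log2 fold change moved to 0.1681 with totals without chromosome M, 0.3579 on log2(FPKM + 1) and 0.3675 on log2(FPKM + 0.1), where the medians of all genes were 0.24, 0.30 and 0.41. It ran from -0.10 to -0.02 with each library left out. The fold changes of 24 named members turned in sign for 13 with totals without chromosome M, 16 on FPKM, 6 on the 8 libraries and 10 with the mitochondrial covariate, and for at most 3 in any other fit, none of them a call in edgeR.

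For the slope on Muc2, 1 member (Kdelr3) was called by DESeq2, by voom with quality weights and by DESeq2 on the 8 libraries. Calls over all genes, 6 with edgeR, were 191 with DESeq2, 381 with DESeq2 on the 8 libraries, 698 with voom and quality weights, 24 with voom, 101 with the mitochondrial covariate, 76 on the 8 libraries, 38 with the goblet list, 33 with no filter, 11 with RLE and 3 with upper-quartile scaling, 0 with totals without chromosome M, and 0 to 27 with each library left out. At a fixed group, totals without chromosome M called 3 of 48 members (Atf6, Dnajc10 and Eif2ak3) and 805 of 14962 genes, a similar share. The other counts were 299 (DESeq2 on the 8 libraries), 192 (DESeq2), 67 (mitochondrial covariate), 40 (voom with quality weights), 33 (no filter), 2 (the 8 libraries) and 0 to 4 with each library left out. For the groups at equal Muc2, totals without chromosome M called 12 of 48 members and 3804 of 14962 genes, also a similar share. DESeq2 called 102 genes, no filter 61 and DESeq2 on the 8 libraries 25. Leaving out each library gave 0 to 1 member and 0 to 1356 genes, the highest without CKO 4. The cause of these changes was not tested.

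With the replicate number as a block, 0 members were called in any comparison, and over all genes 1 for the slope on Muc2 and 13 at a fixed group. Correlations of same-numbered libraries ran from -0.30 to 0.40, and 2 of 5 numbers correlated best with their own, which does not establish a pairing. Genes with few reads, Trib3 and Chac1, have wide intervals at this depth.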

Other observations

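Marker lists of fibroblasts and muscle and of endothelium were at low levels and uneven between the groups. All 8 tested markers of fibroblasts and muscle had estimates above 0 in CKO (median log2 fold change 0.92), and the list summed to 22.5 to 78.3 CPM in flox and 55.1 to 203 CPM in CKO. The endothelial list summed to 18.6 to 68.4 CPM in flox and 6.71 to 16.2 CPM in CKO. The absorptive colonocyte list summed to 18692 to 33188 CPM in flox and 15761 to 30892 CPM in CKO, with 6 of 12 estimates below 0 and a median of 0.02. None of these markers passed edgeR's test, and their part in the values of the ER genes was not tested.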
